A study of Mus musculus with 40 samples.

Results

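Retinoic acid metabolism and signalling were followed through 10 of the 26411 genes counted, across 6 genotypes of whole E9.5 mouse embryos. They were chosen by symbol as the genes that make, break down, bind and sense retinoic acid, and all 10 were found and passed the filter on low counts. They are Aldh1a2 and Aldh1a3 on the supply side and Dhrs3, a reductase that turns retinaldehyde back into retinol. The others are Crabp1 as a binding protein, Cyp26a1, Cyp26b1 and Cyp26c1 on the breakdown side, and the receptors Rara, Rarb and Rarg. KAT6A (also MOZ) and KAT6B are histone lysine acetyltransferases, and loss of Kat6a is known to interact with retinoic acid in patterning of the body axis.

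The data were bulk RNA-sequencing counts from 24 whole embryos, 4 per genotype, from 17 litters. WT embryos were wild type for both genes. Kat6a-/- embryos were homozygous for the null allele labelled cfd, with Kat6b WT, and Kat6b-/- embryos were homozygous for the null allele labelled dec, with Kat6a WT. Kat6aE/E embryos were homozygous for the G656E point mutation in Kat6a, Kat6bE/E embryos for the G577E point mutation in Kat6b, and Kat6aE/E;Kat6bE/E embryos for both. The point mutations exchange a glycine of the acetyl-CoA binding site for glutamic acid and are described by the study as removing acetyltransferase activity while leaving a protein in place. All alleles were present in every cell of the embryo from fertilisation, and the mice were on a C57BL/6 or C57BL/6J background. Embryos were genotyped from their extra-embryonic membranes and selected for similar external appearance.

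Retinoic acid is made from vitamin A in a pair of oxidation steps, and retinaldehyde dehydrogenases of the ALDH1A family carry out the second. CYP26 enzymes oxidise retinoic acid and so clear it from the hindbrain, the tail bud and other regions, which leaves sharp borders of exposure along the embryo. Nuclear receptors of the RAR family, paired with RXR partners, bind the ligand at direct repeats in DNA and switch on genes that include anterior Hox genes, Cyp26a1 and Rarb itself.

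Some libraries went against the description of the material. The study describes the E9.5 embryos as male, but 3 libraries, Kat6a-/- replicate 2 and Kat6b-/- replicates 2 and 3, held Xist at 518 to 738 CPM (counts scaled to a common library size) and at most 0.196 CPM summed over 3 Y-linked genes. In the other 21 libraries Xist was at most 0.503 CPM and the Y-linked genes were at 115 CPM or more. Log2 fold changes of members that rest on these 2 genotypes, at an unadjusted p below 0.05, are therefore given with and without the 3 libraries. Their omission leaves 3 Kat6a-/- and 2 Kat6b-/- embryos. Total counts ranged from 8401990 to 23339359 per library. Kat6a was at 176 ± 8.79 CPM (SD, n = 4) in WT and 166 ± 4.65 CPM in Kat6a-/-, and Kat6b was at 40.5 ± 2.51 CPM in WT and 54.5 ± 2.75 CPM in Kat6b-/-. The null alleles lack only some exons and the point mutations leave the transcript whole, so these whole-gene counts do not check the genotypes. A score of stage (mean log2 CPM of later markers minus that of earlier ones) put WT replicate 4 at -2.61 and Kat6bE/E replicate 3 at -2.54, while the other libraries lay between -1.62 and 0.16. Markers of trophoblast and decidua summed to at most 0.508 CPM in any library and Tpbpa was at 0 throughout.

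Of the 9 members with a promoter window in the RefSeq table, Cyp26a1 and Rarb carried a direct repeat of the retinoic acid receptor half-site with a 5-base spacer (DR5). The half-site searched was A or G, then G, then G or T, then TCA, on both strands, with spacers of 1, 2 or 5 bases, in windows from 250 bases before to 50 bases after each annotated start. A DR5 occurred in 0.0974% of all 32851 windows, which belong to 27025 genes, and no member window held a repeat with a spacer of 1 or 2 bases. Both sequences are shown because the receptors are known to switch on these genes, which makes their levels a common readout of retinoic acid exposure. The stretches run up to the base before the start and are placed on GRCm39 by exact match, with the repeat in capitals.
Rarb promoter, chr14:5894174-5894286, plus strand: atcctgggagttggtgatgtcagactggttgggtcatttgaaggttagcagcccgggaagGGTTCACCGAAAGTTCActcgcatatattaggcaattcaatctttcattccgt
Cyp26a1 promoter, chr19:37686164-37686255, plus strand: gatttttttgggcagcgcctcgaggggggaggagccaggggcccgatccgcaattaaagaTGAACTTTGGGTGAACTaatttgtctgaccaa
The repeat lay from base -53 to base -37 of Rarb and from base -32 to base -16 of Cyp26a1, counted from the annotated start of that window. The Rarb start used here is an internal one, inside the locus that runs from 5650540 to 6041094. The Cyp26a1 repeat lies just before its locus, which begins at 37686241. Cyp26a1 sits 2167 bases downstream of the end of Cyp26c1 on chromosome 19, in the same orientation. These letters describe the windows and do not show binding, which was not measured.

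The normal level of each gene was read first in WT, per length, in FPKM (CPM divided by gene length in kilobases). Crabp1, a small cytoplasmic protein that carries retinoic acid to its degradation, was highest at 553 ± 59.2 FPKM (SD, n = 4), above 99.5% of genes tested. Aldh1a2, the main retinoic acid producer of the trunk mesoderm, followed at 30.4 ± 2.34 FPKM. Next came Rarg at 18.1 ± 2.52, Rara at 15.9 ± 1.06, Cyp26c1 at 14.7 ± 3.61, Cyp26b1 at 10.5 ± 2.14, Aldh1a3 at 10.2 ± 2.06 and Rarb at 9.27 ± 0.469 FPKM. From Rarg down to Rarb each gene overlapped with its neighbour in this order, so their order is not resolved by 4 embryos. Cyp26a1 at 6.97 ± 1.59 FPKM and Dhrs3, a reductase that turns retinaldehyde back into retinol, at 2.67 ± 0.519 FPKM were lowest, with no overlap between Rarb, Cyp26a1 and Dhrs3.

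No member passed the test in any comparison of genotypes (limma, FDR<0.05 over the 14183 genes tested). That was 0 of 10 members in each of the 5 comparisons with WT, where 2.64% of all genes were called in Kat6a-/-, 0.508% in Kat6b-/-, 0.275% in Kat6aE/E, 0% in Kat6bE/E and 2.91% in Kat6aE/E;Kat6bE/E. At an unadjusted p below 0.05 the members numbered 4 in Kat6a-/-, 2 in Kat6b-/-, 1 in Kat6aE/E, 0 in Kat6bE/E and 4 in Kat6aE/E;Kat6bE/E, against 16.9%, 12.1%, 10%, 4.41% and 18.2% of all genes. DESeq2 called 2 members in Kat6a-/-, among 479 genes in all (375 by limma), and 1 in Kat6b-/-, among 154 (72 by limma), and edgeR quasi-likelihood tests with the same surrogate variables called 0 in all 5. The 5 comparisons share the 4 WT libraries, so a WT library that is high or low moves all of them. Without the 3 libraries that held Xist, limma called 3 members in Kat6a-/- (2.94% of all genes), Cyp26c1, Cyp26b1 and Crabp1, all lower, and 1 in Kat6aE/E;Kat6bE/E (3.67%), Cyp26b1, also lower. In the same fit 0 members were called in Kat6b-/- (0.307% of all genes), Kat6aE/E (0.341%) and Kat6bE/E (0%). It called 2 in Kat6aE/E against Kat6a-/- (1.63%), Cyp26b1 and Cyp26c1, both higher, and 0 in Kat6bE/E against Kat6b-/- (0.0697%).

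**Figure D1:**
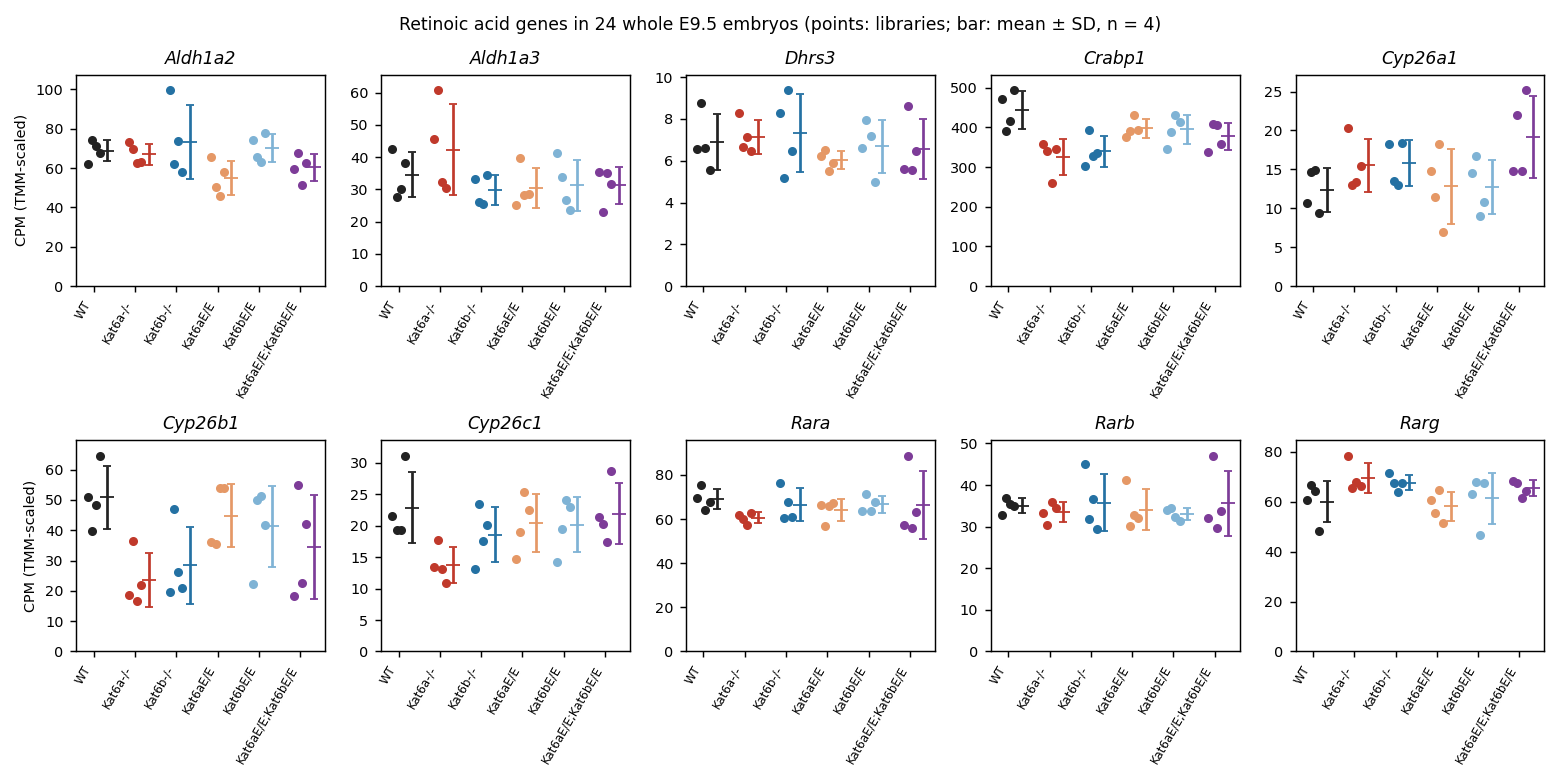
CPM of the 10 genes (y axes, each from 0) in the 24 E9.5 libraries, by genotype (x axes). Points are libraries and the bars beside them the mean ± SD of 4 libraries. In Kat6a-/- all 4 points of Cyp26b1, Cyp26c1, Rara and Crabp1 lie below all 4 WT points.

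The clearest separation of libraries was between Kat6a-/- and WT. In Kat6a-/-, 4 of 10 members, Cyp26b1, Cyp26c1, Rara and Crabp1, lay below WT in all 4 libraries with no overlap, where 6.49% of all genes tested did so (11.9% in either direction). In Kat6b-/-, Kat6aE/E, Kat6bE/E and Kat6aE/E;Kat6bE/E, 0 of 10 members were free of overlap with WT, against 6.61%, 4.94%, 2.31% and 7.31% of all genes. Without the 3 libraries 4 members were free of overlap in Kat6a-/- (19.7% of all genes in either direction) and 4 in Kat6b-/- (23.1%), where 2 embryos remained.

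Of the marker lists, those of paraxial mesoderm and somites (5 genes) and of endothelium (3 genes) were also lower in Kat6a-/- with no overlap. The somite markers summed to 106 to 133 CPM in Kat6a-/- and 139.8 to 162 CPM in WT, and the endothelial markers to 147 to 211 and 221 to 247 CPM. Over 24 libraries with genotype means removed, Rara had r = 0.56 with the former and r = 0.51 with the latter, while Cyp26b1, Cyp26c1 and Crabp1 had r between -0.23 and 0.09 with either. WT replicate 4, the library with the lowest stage score, held the highest WT values of Cyp26b1, Cyp26c1 and Crabp1. Cyp26c1 had r = 0.59 with the markers of earlier stage and r = -0.59 with those of later stage. The part of these tissues and of stage in the Kat6a-/- values was not tested.

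Among the CYP26 enzymes, which clear retinoic acid, Cyp26b1 (chromosome 6, 84548396 to 84570890, minus strand) showed the widest range. It was at 50.9, 39.6, 48.5 and 64.6 CPM in WT and at 18.8, 36.3, 16.7 and 22.1 CPM in Kat6a-/-. All Kat6a-/- values were below all WT values, and the highest of them was the library with Xist. The fitted log2 fold change was -0.81 (SE 0.311, FDR 0.193, limma) and became -1.25 (FDR 0.00585) without the 3 libraries.

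In Kat6b-/- embryos Cyp26b1 was at 19.7, 47.1, 26.1 and 21.0 CPM. Replicate 2, a library with Xist, reached into the WT range, and the other 3, which include replicate 3 with Xist, were below it. The log2 fold change from WT was -0.79 (SE 0.303, FDR 0.292, limma), and -1.32 (FDR 0.0536) without the 3 libraries. The estimates for the null genotypes differed by -0.01 (Kat6a-/- minus Kat6b-/-), with a 95% interval from -0.73 to 0.70, so a difference of that size in either direction was not resolved. Without the 3 libraries they differed by 0.06 (FDR 0.960, limma).

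In the point mutants Cyp26b1 varied between libraries of a genotype. Kat6aE/E libraries were at 36.2, 35.5, 53.8 and 53.8 CPM and Kat6bE/E libraries at 22.3, 49.8, 51.2 and 41.8 CPM. Kat6aE/E;Kat6bE/E libraries were at 18.4, 55.1, 22.4 and 42.0 CPM. All 3 genotypes overlapped WT, and in the double mutant 2 libraries lay with the null embryos and 2 within the WT range. The 2 low libraries, replicates 1 and 3, were littermates (litter 837), and the other 2 came from litters 921 and 899. The part of litter in this split was not tested. In the double mutant the log2 fold change was -0.73 (SE 0.321, FDR 0.241, limma) and -0.84 (FDR 0.0295) without the 3 libraries, although none of these is of the double mutant or WT. In Kat6aE/E against Kat6a-/- the estimate was 0.68 with a 95% interval from -0.02 to 1.37, and without the 3 libraries it was 1.21 (FDR 0.0143), with 1.63% of all genes called in that comparison. Kat6bE/E against Kat6b-/- gave 0.52, with a 95% interval from -0.15 to 1.20. Without the 3 libraries this second difference was 1.12 (FDR 0.168, limma), where 2 Kat6b-/- embryos remained and 0.0697% of all genes were called.

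Cyp26b1 was variable within genotypes too. The SD of its log2 CPM after removal of genotype means was 0.52, larger than that of 94.5% of genes (median over genes 0.14). Markers of hindbrain (4 genes) and neural crest (4 genes) had r = 0.56 and r = 0.57 with it over 24 libraries, as a description with genotype means removed. Their sums ranged from 90.02 to 96.7 CPM (hindbrain) and 147 to 179 CPM (neural crest) in Kat6a-/-, and from 89.4 to 109 and 172 to 188 CPM in WT. In Kat6b-/- they ranged from 100.2 to 113 and from 168 to 184 CPM. The part of these cell types in the result was not tested, and in whole embryos fewer cells of a type cannot be told apart from less RNA per cell.

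Cyp26c1 (chromosome 19, 37674029 to 37684073, plus strand), expressed in hindbrain and head mesenchyme, was at 21.5, 19.4, 19.4 and 31.1 CPM in WT. Kat6a-/- libraries were at 13.4, 17.7, 13.1 and 10.96 CPM. No Kat6a-/- library reached the lowest WT library, and replicate 2 was again the nearest. In the limma fit the change was -0.63 on the log2 scale (SE 0.179, FDR 0.0711) and -0.94 (FDR 0.00241) without the 3 libraries.

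The other genotypes overlapped WT in Cyp26c1, with ranges of 13.1 to 23.4 CPM in Kat6b-/-, 14.7 to 25.4 in Kat6aE/E, 14.3 to 24.1 in Kat6bE/E and 17.4 to 28.7 CPM in Kat6aE/E;Kat6bE/E. Against Kat6a-/-, Cyp26c1 was higher in Kat6aE/E by 0.45 on the log2 scale (SE 0.188, FDR 0.255) and in Kat6aE/E;Kat6bE/E by 0.59 (SE 0.185, FDR 0.288). Neither passed the test, where 1.6% and 0.00705% of all genes did. Without the 3 libraries these differences were 0.82 (FDR 0.0128) and 0.84 (FDR 0.101), with 0.00697% of all genes called in the latter comparison. The difference for Kat6aE/E was 0.29 without Kat6a-/- replicate 4 and 0.75 without Kat6a-/- replicate 2.

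Cyp26a1 (chromosome 19, 37686241 to 37689984, plus strand), the enzyme of the tail bud and a direct receptor target, had estimates above 0 in 4 of the 5 comparisons with WT. It was at 10.6, 14.7, 14.97 and 9.38 CPM in WT and at 14.7, 22.0, 14.8 and 25.2 CPM in Kat6aE/E;Kat6bE/E. Replicates 2 and 4 of the double mutant were above every WT library. The other 2, littermates of litter 837, were inside the WT range. These values gave a log2 fold change of 0.43 (SE 0.201, FDR 0.274, limma), which was 0.27 without replicate 4 of the double mutant and 0.69 with 0 surrogate variables. Kat6a-/- libraries ranged from 12.9 to 20.3 CPM, Kat6b-/- from 13.0 to 18.4, Kat6aE/E from 6.94 to 18.2 and Kat6bE/E from 9.01 to 16.7 CPM, all overlapping WT. Markers of the tail bud (T, Wnt3a, Fgf17 and Cdx2) moved with Cyp26a1 over the libraries (r = 0.75, genotype means removed, 24 libraries). Their sum ranged from 23.9 to 50.4 CPM in WT, 46.2 to 91.7 in Kat6a-/-, 48.9 to 86.4 in Kat6b-/- and 54.1 to 75.1 CPM in Kat6aE/E;Kat6bE/E, and the part of the tail bud in the Cyp26a1 values was not tested.

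Crabp1 (chromosome 9, 54671171 to 54680403, plus strand) was the member nearest to the threshold. It was at 472, 392.1, 416 and 494 CPM in WT and at 357, 341, 260 and 347 CPM in Kat6a-/-. All 4 Kat6a-/- libraries were below all WT libraries, with replicate 3 apart from the rest. The log2 fold change was -0.40 (SE 0.103, FDR 0.0517, limma), and -0.48 (FDR 0.0370) without the 3 libraries.

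Kat6b-/- libraries held 303, 395, 328 and 335 CPM of Crabp1. All but replicate 2 were below every WT library, and replicate 2 was just above the lowest of them. The log2 fold change was -0.38 (SE 0.103, FDR 0.123, limma), and -0.52 (FDR 0.124) without the 3 libraries. The point mutants overlapped WT, with 377 to 432 CPM in Kat6aE/E, 345 to 432 in Kat6bE/E and 338 to 408 CPM in Kat6aE/E;Kat6bE/E. The log2 fold change in the double mutant was -0.24 (SE 0.104, FDR 0.233), and Kat6aE/E was above Kat6a-/- by 0.27 (SE 0.107, FDR 0.241), or by 0.16 without Kat6a-/- replicate 3. Without the 3 libraries with Xist, Kat6aE/E was above Kat6a-/- by 0.36 (FDR 0.161, limma).

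On the supply side, Aldh1a2 (chromosome 9, 71122630 to 71203527, plus strand) was at 61.8, 74.3, 71.0 and 67.9 CPM in WT and at 65.8, 50.2, 45.9 and 58.0 CPM in Kat6aE/E. All Kat6aE/E libraries but replicate 1 were below every WT library, and the lowest, replicates 2 and 3, were littermates (litter 696). The log2 fold change of Aldh1a2 in Kat6aE/E was -0.29 (SE 0.126, FDR 0.455, limma). In Kat6a-/- the values of 62.4 to 73.1 CPM fell inside the WT range, and the 95% interval of the log2 fold change ran from -0.34 to 0.21.

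Aldh1a3, the synthesis enzyme of the ventral eye and nose, ranged from 27.5 to 42.6 CPM in WT and from 22.9 to 60.8 CPM over the other genotypes, with the highest value in Kat6a-/- replicate 2, a library with Xist. Dhrs3 ranged from 5.57 to 8.75 CPM in WT and from 4.98 to 9.37 CPM elsewhere. Neither gene had an unadjusted p below 0.05 in any comparison. Dhrs3 had r = -0.72 with the summed markers of earlier stage, and Aldh1a3 had r = -0.71 with the 3 endothelial markers, over 24 libraries with genotype means removed.

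Of the receptors, Rara (chromosome 11, 98818612 to 98865768, plus strand), the most widely expressed of them, was at 69.6, 75.2, 64.3 and 67.6 CPM in WT. Kat6a-/- libraries were at 61.9, 59.97, 57.5 and 62.9 CPM. These were all below WT, in a range narrower than that of WT. Its log2 fold change was -0.15 (SE 0.0562, FDR 0.145, limma) and stayed at -0.15 (FDR 0.175) without the 3 libraries.

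In Kat6aE/E;Kat6bE/E embryos Rara was at 57.2, 88.8, 55.7 and 63.0 CPM. Replicate 2 was the highest of all 24 libraries. The other 3, among them the littermates 1 and 3, were below every WT library. The fit, in which surrogate variables take up variation shared across genes, gave a log2 fold change of -0.19 (SE 0.0579, FDR 0.072, limma), while the plain means on the log2 scale differed by -0.09. Replicate 2 also held the highest Rarb, 47.1 CPM, against 29.7 to 33.7 CPM in the other 3 double mutants.

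Rarb (chromosome 14, 5650540 to 6041094, plus strand), the receptor gene with the DR5 shown above, overlapped WT in every genotype. WT libraries ranged from 32.7 to 37.0 CPM and Kat6a-/- libraries from 30.3 to 35.9 CPM. For Kat6a-/- the log2 fold change was -0.05 with a 95% interval from -0.19 to 0.09, and over the 5 comparisons with WT the estimates lay between -0.10 and -0.02.

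Rarg, the receptor of tail bud and mesenchyme, was at 60.9, 66.9, 64.5 and 48.1 CPM in WT and at 78.5, 65.5, 67.8 and 66.5 CPM in Kat6a-/-. The groups overlapped through replicate 2 and replicate 4 of Kat6a-/-, and the lowest WT value was that of the library with the lowest stage score. Against Kat6a-/-, Kat6aE/E was lower by 0.12 on the log2 scale (log2 fold change -0.12, SE 0.0535, FDR 0.287, limma), and Kat6bE/E against Kat6b-/- gave -0.11 (SE 0.0535, FDR 0.555), where 0.0353% of all genes were called. The first of these was -0.26 with 0 surrogate variables, and -0.15 (FDR 0.220, limma) without the 3 libraries with Xist. The second was -0.03 without Kat6bE/E replicate 3, a library of low stage score with Rarg at 46.5 CPM, and -0.17 without Kat6bE/E replicate 4. Without the 3 libraries with Xist the second was -0.12 (FDR 0.628, limma). Rarg moved with the tail bud markers over the libraries (r = 0.81, genotype means removed), and the part of the tail bud in these differences was not tested.

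**Figure D2:**
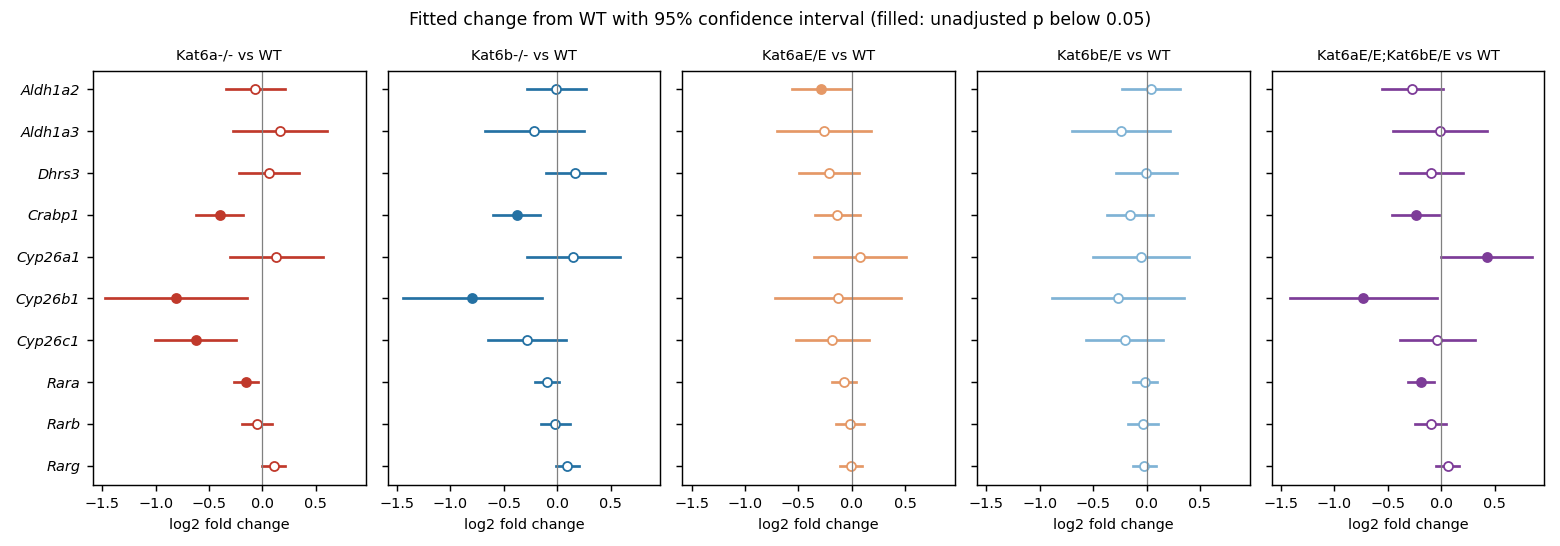
Log2 fold change from WT (x axes) of the 10 genes (y axis) in each mutant genotype, from the limma fit with 4 libraries per genotype. Lines are 95% confidence intervals and filled points have an unadjusted p below 0.05; Cyp26b1 has the widest intervals and Rara, Rarb and Rarg the narrowest.

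Whether both point mutations together depart from the sum of each alone was also tested. For 0 of 10 members was the unadjusted p below 0.05 (6.42% of all genes), and 0 members and 0% of all genes were called. The intervals were wide, for Cyp26b1 from -1.28 to 0.62 on the log2 scale, so a departure of that size was not resolved. Without the 3 libraries with Xist, none of which is of the genotypes in this test, the Cyp26b1 departure was -0.60. Its unadjusted p was 0.0356 and its FDR 0.727 (limma), with 0% of all genes called. Between Kat6a-/- and Kat6b-/- 0 of 10 members were called, where 1.64% of all genes were. Cyp26c1 had the smallest FDR there (0.363), with a log2 fold change of -0.34 (95% interval from -0.73 to 0.05). Without the 3 libraries that held Xist, 0 members and 0% of all genes were called between these null genotypes. The Cyp26c1 estimate was then -0.41 (FDR 0.515, limma).

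WT and mutant embryos of the same litter allowed 3 side by side readings, with no test. In the litter of WT replicate 1 and Kat6a-/- replicate 2, Cyp26b1 was at 50.9 and 36.3 CPM, Cyp26c1 at 21.5 and 17.7, Crabp1 at 472 and 341, and Rara at 69.6 and 59.97 CPM, so all 4 genes were lower in the mutant littermate, which was the library with Xist. In the litter of WT replicate 3 and Kat6b-/- replicate 2, Cyp26b1 was at 48.5 and 47.1 CPM and Crabp1 at 416 and 395 CPM. In the litter of WT replicate 2 and Kat6aE/E replicate 1, Aldh1a2 was at 74.3 and 65.8 CPM and Crabp1 at 392.1 and 377 CPM. Kat6bE/E and Kat6aE/E;Kat6bE/E shared no litter with WT. Within genotypes, replicates 1 and 4 of Kat6a-/- and 2 and 3 of Kat6aE/E were littermates. So were replicates 1 and 2 of Kat6bE/E and 1 and 3 of Kat6aE/E;Kat6bE/E.

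Members also varied together from embryo to embryo within genotypes. Over 24 libraries with genotype means removed, Pearson's r of log2 CPM was 0.80 for Rara and Rarb, 0.71 for Aldh1a2 and Rarb, 0.70 for Cyp26a1 and Rarg, 0.67 for Cyp26b1 and Cyp26c1, and 0.65 for Cyp26b1 and Crabp1. These are descriptions over libraries that share litters, stage and scaling. The neighbours Cyp26a1 and Cyp26c1 were not among the pairs that varied most alike.

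The genes most like a member in this sense were named for all 10. For Cyp26c1 the closest was Tbx1 (r = 0.85), the T-box factor of the pharyngeal arches. For Rarg they were Peli3 (r = 0.92), Hoxd11 (r = 0.92) and Hoxc10 (r = 0.90), for Cyp26a1 Gad1 (r = 0.86), Nradd (r = 0.82) and the segmentation gene Hes7 (r = 0.81), and for Rara Camk2g (r = 0.91). Rarb was closest to Tshz2 (r = 0.88), Dhrs3 to Dnm1 (r = 0.86), Cyp26b1 to Kri1 (r = 0.83), Crabp1 to Nsg2 (r = 0.81), Aldh1a3 to Leprot (r = 0.81) and Aldh1a2 to Aph1a (r = 0.78).

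**Figure D3:**
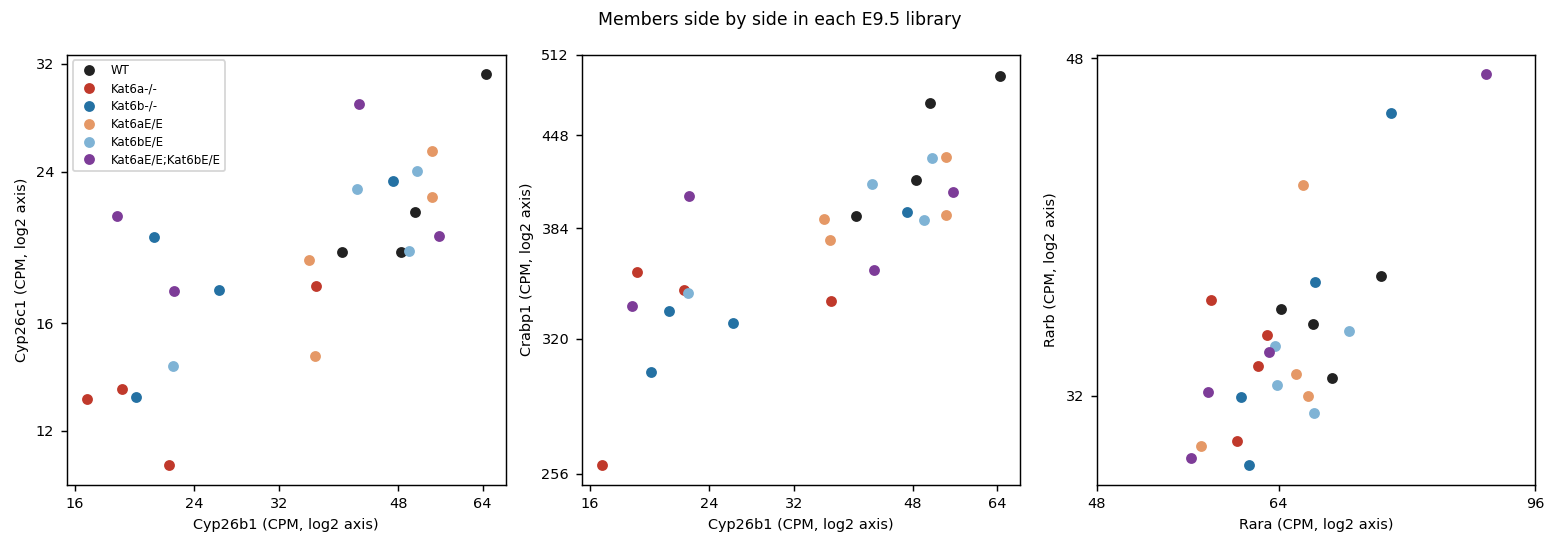
Levels in CPM on log2 axes of Cyp26b1 against Cyp26c1 (left) and Crabp1 (middle), and of Rara against Rarb (right), 1 point per E9.5 library, coloured by genotype. In the left and middle panels the Kat6a-/- libraries lie toward the lower left, and in the right panel replicate 2 of the double mutant and replicate 1 of Kat6b-/- lie at the upper right.

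Of 47 other genes of the pathway 43 were tested. They were listed with earlier results of these data known, and the study itself reports Tbx1 and Tbx5 as reduced in Kat6a-/- and Kat6aE/E;Kat6bE/E. Counts over this list and its groups, set beside all genes, are therefore a description and not a test of the pathway. In Kat6a-/-, 5 of the 43 were called, all lower, where 2.64% of all genes were called, and the middle estimate was -0.10 on the log2 scale over the 43 and 0.00 over all genes tested. All but Tbx1 are genes that retinoic acid is known to induce. Hoxb1 (log2 fold change -0.43, FDR 0.0440) patterns the hindbrain, Tbx5 (-0.44, FDR 0.0263) acts in heart and forelimb, Nr2f1 (-0.23, FDR 0.0290) is an orphan nuclear receptor and Pax6 (-0.28, FDR 0.0430) acts in eye and neural tube. Tbx1 (-0.77, FDR 0.000171), which retinoic acid is known to repress, was at 12.5 to 17.7 CPM in Kat6a-/- and 24.5 to 31.8 CPM in WT with no overlap. Without the 3 libraries Tbx5 was no longer called (-0.22, FDR 0.386) and the other 4 were. Tbx1 was called under all 23 alternatives tried, with omission of each library among them, while the count of 5 fell to 1 without WT replicate 2, 3 or 4 or Kat6a-/- replicate 3, to 2 without Kat6a-/- replicate 1 or 4, and to 3 without WT replicate 1.

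The induced targets as a group had 4 of 16 called lower and 13 of 16 with an estimate below 0 in Kat6a-/-, and their median estimate was -0.18 on the log2 scale. Of all 14183 genes 196 were called lower and 7203 had an estimate below 0, and the somite and endothelial markers described above were lower too. None of the 12 genes of retinol supply and retinaldehyde synthesis and none of the 12 of binding proteins, RXR partners and cofactors was called in Kat6a-/-. At an unadjusted p below 0.05 these last groups held 0 and 4 genes.

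In Kat6aE/E;Kat6bE/E, 3 of the 43 were called, where 2.91% of all genes were. The receptor partner Rxra (log2 fold change -0.17, FDR 0.0295) and the Hox gene Hoxb5 (-0.39, FDR 0.0298) fell, and Rdh11, a retinol dehydrogenase (0.29, FDR 0.0354), rose. Rxra was at 103 to 118 CPM in the double mutant and 123 to 127 CPM in WT, and Rdh11 at 33.6 to 43.5 and 28.9 to 31.7 CPM, both with no overlap. Hoxb5 overlapped, at 12.3 to 17.8 CPM against 16.95 to 18.95 CPM. The count of 3 fell to 0 without WT replicate 1, 2 or 3, and to 1 without replicate 2, 3 or 4 of the double mutant. In Kat6b-/-, Kat6aE/E and Kat6bE/E 0 of 43 were called by limma, and 8, 9 and 2 had an unadjusted p below 0.05, against 12.1%, 10% and 4.41% of all genes.

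**Figure D4:**
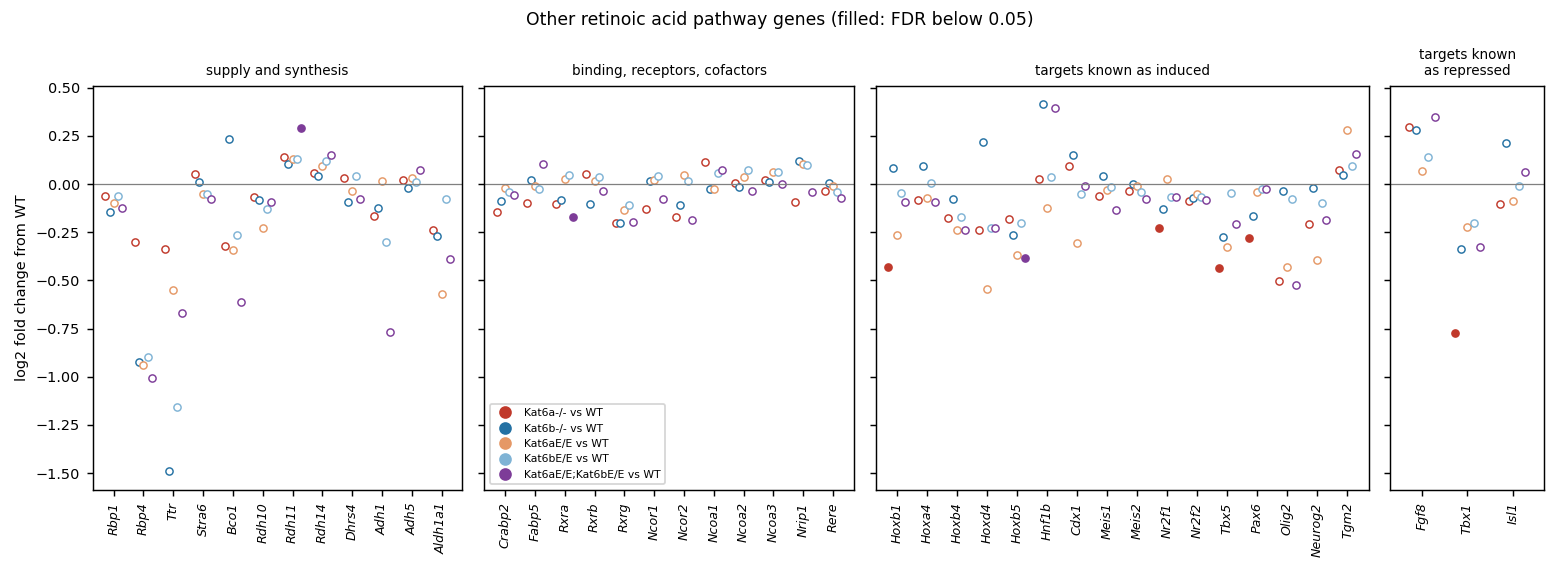
Log2 fold change from WT (y axis) of the 43 other pathway genes (x axis) in the 5 mutant genotypes, grouped by role. Filled points have FDR below 0.05, namely 5 genes in Kat6a-/-, all below 0, and 3 in the double mutant. The lowest points are open ones of Ttr in Kat6b-/- (-1.49) and Kat6bE/E (-1.15).

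Rbp4 and Ttr, the carriers of retinol in blood, did not pass the test in any comparison with WT. Over the 5 comparisons the lowest log2 fold changes of the list were those of Ttr in Kat6b-/- (-1.49, FDR 0.414) and Kat6bE/E (-1.15, FDR 0.998), while in Kat6a-/- Ttr was at -0.34 and Rbp4 at -0.30. Ttr ranged from 1.56 to 11.1 CPM in WT, with a median of 2.21 CPM, and from 0.499 to 2.89 CPM in Kat6b-/-. Both are made by visceral endoderm, and the summed markers of that tissue ranged from 23.9 to 148 CPM in WT and from 12.4 to 35.2 CPM in Kat6b-/-. The part of remaining yolk sac in these values was not tested.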

How the data were processed

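The deposited values are counts: the authors aligned read pairs to mm39 and counted those assigned to each RefSeq gene with featureCounts (names per the labels and methods, version not given in the sources used here). The libraries were not strand-specific by kit, so a gene and its antisense partner are not separated. Of 26411 genes, 26359 matched a RefSeq gene table (52 did not), and 14183 protein-coding genes outside the Y chromosome passed filterByExpr. Following the study's methods, counts were TMM-scaled and fitted with voomLmFit on all 24 E9.5 libraries, with 4 surrogate variables, litter as a random block (correlation 0.107) and robust limma moderation. The calls are not the study's own. More genes were tested than the study reports. More were called in Kat6a-/- (375) and Kat6aE/E;Kat6bE/E (413), and fewer in Kat6b-/- (72). The FDR was obtained by Benjamini-Hochberg adjustment across the 14183 genes, separately for each comparison. CPM is TMM-scaled, and FPKM divides it by the gene length in the files. Gene positions came from GENCODE on GRCm39 and promoter windows from RefSeq (GRCm38.p6), matched for 9 of 10 members. Analyses were run in R 4.3.3 with limma 3.58.1, edgeR 4.0.16 and, as an alternative, DESeq2 1.42.0, and the fit was tested on simulated data.

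The members and gene lists were chosen with earlier results of these data known. Each of the 10 members is described, with fold change, SE and FDR where the unadjusted p was below 0.05 (limma) and other values where a difference or an interval is discussed. Pathway genes are named where called (1 gene of the list is not reported here), and Rbp4 and Ttr were named after their values were seen. Embryos are the replicates, and totals of 8401990 counts or more gave each member at least 62 counts in every library. With 4 embryos per genotype, their number limits the precision, and for the member with the fewest counts, Dhrs3, counting error adds to it. Alternatives were 0, 2 or 6 surrogate variables, no litter block, edgeR and DESeq2, other scaling, no filter, all gene types, a replicate block, only the libraries compared, a stage score as covariate and omission of each library. Omission of the 3 libraries with Xist and sample weights were added after the data had been seen.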

Additional observations from a re-analysis of the deposited data

Results flagged for a closer look

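Each of the 60 groups of 4 libraries (10 genes in 6 genotypes) was tested for a library far from the others, and 2 had one, where chance gives about 1 in 20. Rara in Kat6aE/E replicate 2 was at 56.6 CPM, while the other 3 libraries of that genotype lay between 65.8 and 67.1 CPM. Crabp1 in Kat6a-/- replicate 3 was at 260 CPM, while the other 3 lay between 341 and 357 CPM. Without that library the log2 fold change of Crabp1 from WT was -0.30, and it was -0.40 with it.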

How the results depend on the processing

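Of the log2 fold changes of members at an unadjusted p below 0.05 and of called pathway genes, 24 were recomputed under 23 alternatives each, and 0 changed direction. These estimates were chosen by p in the same data, so an unchanged direction is no independent check. A call was lost in 78 of the recomputations and gained in 21, while 453 kept their status. No member was called in the model reported, so only pathway genes could lose a call. Pax6 and Hoxb1 lost theirs most often (13 of 23 alternatives each). Other values named were not recomputed under all alternatives. The number of members called in Kat6a-/- was 0 in the model reported, and 1 with 0 surrogate variables, in edgeR without surrogate variables and with no filter (Crabp1), and 2 with 6 surrogate variables, in DESeq2, with all gene types and with the stage score (Cyp26c1 and Crabp1), fits that called 631, 479, 498 and 408 genes in all. It was 3 without the 3 libraries with Xist, which lowers the number of embryos and has the surrogate variables estimated anew, and 0 to 1 with omission of single libraries, where omission of Kat6a-/- replicate 2 called Cyp26c1. In Kat6b-/- DESeq2 called 1 member (Crabp1). In Kat6aE/E;Kat6bE/E 1 was called with 6 surrogate variables and with the stage score (Rara) and 1 without the 3 libraries (3.67% of all genes). In Kat6aE/E against Kat6a-/- 2 were called without the 3 libraries (1.63%). Over all genes, 111 were called in Kat6a-/- with 0 surrogate variables and 48 with sample weights, against 375. The causes were not tested.

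Pathway genes called in Kat6a-/- numbered 1 (Tbx1) with 0 or 2 surrogate variables, in edgeR without them and with sample weights, and 1 to 4 with omission of single libraries, against 5. In Kat6aE/E they numbered 2 with 6 surrogate variables (Hoxb5 and Hoxd4), against 0. In Kat6aE/E;Kat6bE/E they numbered 0 with 0 surrogate variables, in edgeR without them, in only the 8 libraries compared and with sample weights, 5 with 6 surrogate variables or the stage score, and 0 to 3 with omission of single libraries, against 3. Members free of overlap with WT in Kat6b-/- numbered 1 with no TMM scaling and 4 without the 3 libraries (Cyp26b1 and Crabp1 lower, Cyp26a1 and Rarg higher), where 2 libraries were left and 23.1% of all genes did not overlap. With omission of single libraries they numbered 4 to 5 in Kat6a-/-, 0 to 2 in Kat6b-/- and 0 to 1 in each of Kat6aE/E, Kat6bE/E and Kat6aE/E;Kat6bE/E, while the share of all genes free of overlap was 14.4% to 19.7%, 7.94% to 13.6%, 6.8% to 10.3%, 3.88% to 7.92% and 9.52% to 16.2% in the same order.

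The replicate numbers of the labels did not pair the libraries throughout, with number 4 as an exception. Deviations of same-numbered libraries correlated at -0.15 to 0.31 over 20 pairs, 6 of them above 0.1, and 9 libraries correlated best with their own number. Of those 6 pairs, 5 were the pairs of WT replicate 4 with replicate 4 of each other genotype (0.11 to 0.31). Each of these mutant libraries correlated best with WT replicate 4. A replicate block beside litter and 4 surrogate variables called 1 member in Kat6a-/- (Crabp1), where 0 were called without it. Over all genes the block gave 277 calls in Kat6a-/- and 200 in Kat6b-/-, against 375 and 72 without it.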

Other observations

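The same genes were read in the 16 libraries of E14.5 foetal liver LSK cells (lineage marker-negative, SCA-1-positive, c-KIT-positive blood progenitors), as levels only. Rara at a median of 16.3 CPM, Dhrs3 at 10.4 and Rarg at 9.36 CPM had counts in 16 of 16 libraries. Cyp26b1 had counts in 13 libraries and Rarb in 14, at medians of 0.678 and 0.637 CPM. Crabp1, the highest member in the embryo per length, had counts in 2 of 16 libraries and at most 1 count in any, and Aldh1a2 and Cyp26c1 had counts in 5 libraries each. Rara, Rarg, Dhrs3, Cyp26b1 and Rarb passed the filter on low counts in these cells, and the other 5 members did not.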
